A study of Mus musculus with 2 samples.

Results

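The 48 genes described here encode chromatin and DNA methylation regulators, taken from a list of named symbols and matched by gene identifier to the annotation, and all 48 were found among the 43346 mouse genes measured. They were grouped by role into DNA methylation (7 genes), Polycomb (11), histone deacetylases (8), histone methyltransferases (6), histone demethylases (5) and nucleosome remodellers (7). The acetyltransferase genes Ep300, Crebbp and Kat2a and the insulator gene Ctcf belong to none of these groups and were kept as 2 further classes. The genes lay on 18 chromosomes, and positions are 1-based on GRCm38.

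Total RNA from lungs of B6NCrl mouse embryos at embryonic day 14.5 was sequenced as 2 libraries, numbered as biological replicates 2 and 1 of 1 group, with no allele or treatment named. The labels call each sample both a pool of male and female tissue and a single lung of pup 1, so the number of animals behind each library is unclear. The input was 10.0 ng of RNA over 200 nt per library, and the lungs were taken on July 17 (replicate 2) and July 15 (replicate 1). Xist, the RNA of X inactivation, had 70.1 TPM in replicate 2 and 0.07 in replicate 1, while the Y-linked genes measured were near 0 in replicate 2 and not in replicate 1, which goes against a pool of both sexes in either library. Summed expected counts on mouse genes were 33167255 in replicate 2 and 31940637 in replicate 1, and spike-in RNA took another 3.96% of all counts in replicate 2 and 4.94% in replicate 1.

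In vertebrates, DNA methyltransferases place methyl groups on cytosines that precede guanines (CpG sites), Dnmt1 with its partner Uhrf1 copies the marks after replication, and Tet enzymes oxidise them. Polycomb complexes silence developmental genes through methylation of histone H3 at lysine 27 and ubiquitylation of histone H2A. Deacetylases, methyltransferases and demethylases write or remove other histone marks, and remodellers of the SWI/SNF (BAF) and CHD families use ATP to move or evict nucleosomes. In lung development, Ezh2 and the deacetylases Hdac1 and Hdac2 are known regulators of the epithelium.

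The genes Dnmt3a, Dnmt1 and Kdm2b combined more than 1 start site with transcripts of different coding content, and their promoters are shown because the results on these genes turn on which start was used. The stretches come from RefSeq on GRCm38.p6, are 120 bases long, end 30 bases before the listed start, run 5′ to 3′ on the gene's strand and have CpG sites in capitals. Dnmt3a lies on the plus strand of chromosome 12, and its stretches are chr12:3806830-3806949 at the upstream start and chr12:3891594-3891713 at the internal start. Those of Dnmt1, on the minus strand of chromosome 9, are chr9:20959919-20960038 and chr9:20953010-20953129. For Kdm2b, on the minus strand of chromosome 5, they are chr5:122988538-122988657 and chr5:122900398-122900517.
Dnmt3a upstream start: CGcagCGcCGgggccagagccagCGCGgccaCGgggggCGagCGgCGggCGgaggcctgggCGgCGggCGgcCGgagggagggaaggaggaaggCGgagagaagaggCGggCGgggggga
Dnmt3a internal start: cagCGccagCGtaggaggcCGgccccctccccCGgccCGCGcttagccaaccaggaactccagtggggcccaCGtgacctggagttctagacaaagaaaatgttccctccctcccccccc
Dnmt1 upstream start: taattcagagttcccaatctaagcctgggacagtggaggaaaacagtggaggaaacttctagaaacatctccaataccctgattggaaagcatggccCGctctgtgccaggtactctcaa
Dnmt1 downstream start: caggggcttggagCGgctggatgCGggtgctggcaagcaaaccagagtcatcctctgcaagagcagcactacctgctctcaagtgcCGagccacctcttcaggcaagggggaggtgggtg
Kdm2b upstream start: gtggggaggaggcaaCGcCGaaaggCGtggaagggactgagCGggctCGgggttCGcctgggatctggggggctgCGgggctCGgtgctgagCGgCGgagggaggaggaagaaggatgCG
Kdm2b internal start: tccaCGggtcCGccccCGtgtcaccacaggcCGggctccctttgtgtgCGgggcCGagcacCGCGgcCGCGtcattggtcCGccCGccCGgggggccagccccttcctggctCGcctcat
The printed stretches hold 17 CpG sites at the Dnmt3a upstream start against 7 at its internal start. At Dnmt1 they hold 1 at the upstream start and 3 at the downstream start. Kdm2b has 11 at its upstream start and 14 at its internal start.

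Smarcb1, Kdm1a, Suz12 and Ehmt2 differed between transcripts by a short coding exon segment, which is printed in capitals with 12 flanking bases of the transcript on either side. The Smarcb1 segment of 27 bases is chr10:75916773-75916799 on the minus strand, and the Kdm1a segment of 60 bases is chr4:136582040-136582099 on the minus strand. On the plus strand, the Suz12 segment of 69 bases is chr11:79999057-79999125 and the Ehmt2 segment of 102 bases is chr17:34905610-34905711. Each length is a multiple of 3, so including or leaving out the segment keeps the reading frame.
Smarcb1-201: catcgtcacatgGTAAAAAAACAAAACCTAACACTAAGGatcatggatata
Kdm1a-202: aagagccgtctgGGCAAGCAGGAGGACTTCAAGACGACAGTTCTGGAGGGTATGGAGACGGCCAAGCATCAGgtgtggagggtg
Suz12-201: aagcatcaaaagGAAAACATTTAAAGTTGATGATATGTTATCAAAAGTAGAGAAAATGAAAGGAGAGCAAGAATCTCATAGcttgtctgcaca
Ehmt2-204: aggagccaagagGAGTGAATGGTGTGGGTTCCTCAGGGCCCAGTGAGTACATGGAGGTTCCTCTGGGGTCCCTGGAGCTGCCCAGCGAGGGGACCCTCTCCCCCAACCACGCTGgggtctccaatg

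All 48 regulators were expressed in both libraries at 1 TPM or more, where TPM is a level corrected for transcript length and scaled to the same sum in each library. Their median level was 34.0 TPM, 35.5 in replicate 2 and 31.9 in replicate 1, against 4.10 TPM for all protein-coding genes, of which 12637 of 21474, or 58.8%, were detected by the same rule. Of the members, 42 (87.5%) reached 10 TPM in both libraries, 15 (31.25%) reached 50 TPM and 5 (10.4%) reached 100 TPM. The shares of all protein-coding genes at these marks were 39.7%, 14.0% and 6.75%. The highest level was 205 ± 1.52 TPM for Hdac2 and the lowest 1.85 ± 0.0212 TPM for Cbx7 (SD, n = 2 each). On the deposited posterior mean TPM, Hdac9 was lowest, with 3.06 in replicate 2 and 3.22 in replicate 1, below Cbx7 at 3.46 and 3.40. Group medians ran between 23.1 TPM for Polycomb genes and 38.5 TPM for remodellers. With 1 group of 2 libraries, levels are a description with no test, and in whole tissue a difference in the number of cells of a type cannot be told apart from a difference in RNA per cell.

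**Figure D1:**
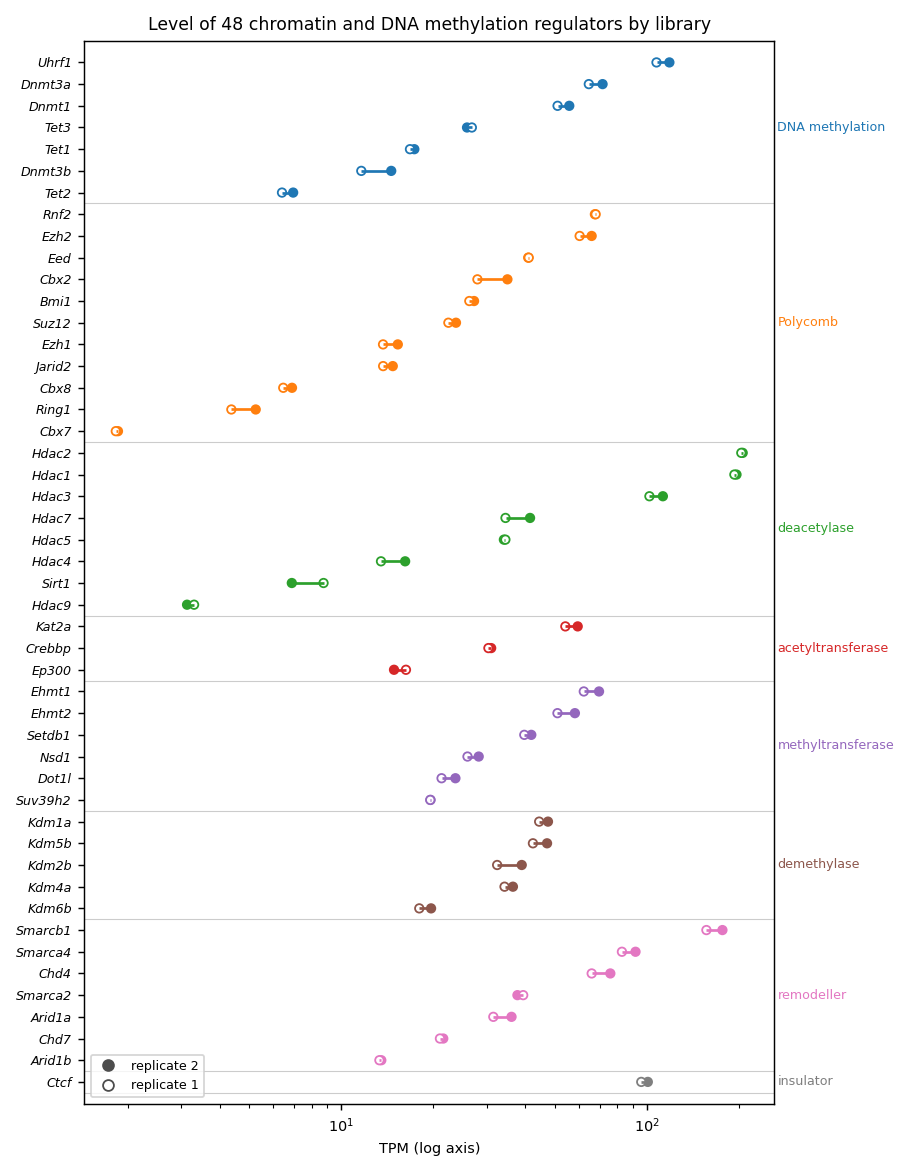
Level of each member in TPM (log axis), filled circles for replicate 2 and open circles for replicate 1, grouped by role and sorted by mean within a group. Hdac2 and Hdac1 stand highest near 200 TPM and Cbx7 lowest, and the gap between libraries is small against the gaps between genes.

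Among the DNA methylation genes, Uhrf1, Dnmt3a and Dnmt1 stood highest. Uhrf1, whose protein brings Dnmt1 to newly replicated DNA, had 118 TPM in replicate 2 and 107 in replicate 1. Dnmt1, the maintenance methyltransferase (ENSMUSG00000004099.11, chromosome 9 from 20907209 to 20959888), had 55.7 and 51.0 TPM in replicates 2 and 1. Dnmt3a, a methyltransferase that sets new marks (ENSMUSG00000020661.11, chromosome 12 from 3806007 to 3914443), reached 71.6 TPM in replicate 2 and 64.6 in replicate 1. Its relative Dnmt3b (ENSMUSG00000027478.11, chromosome 2 from 153649450 to 153687730) stood at 14.6 TPM in replicate 2 and 11.6 in replicate 1. The level of Dnmt3b was thus 0.204 of that of Dnmt3a in replicate 2 and 0.180 in replicate 1, and the ranges of the pair lay apart.

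All 3 Tet genes, which encode the dioxygenases that begin demethylation, were detected, in the order Tet3, Tet1, Tet2. Tet3 had 25.8 TPM in replicate 2 and 26.7 in replicate 1. Tet1 had 17.3 and 16.8 TPM in replicates 2 and 1, and Tet2 had 6.96 and 6.40 TPM. Tet3 exceeded Tet1 by 1.54 ± 0.0751 fold and Tet2 by 3.94 ± 0.334 fold (SD, n = 2), and no range of these 3 genes overlapped another. In the order Uhrf1, Dnmt3a, Dnmt1, Tet3, Tet1, Dnmt3b, Tet2, each of the 7 genes lay apart from the next.

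Of the core of Polycomb complex 2, the methyltransferase gene Ezh2 (ENSMUSG00000029687.12, chromosome 6 from 47530139 to 47595341) stood at 65.9 TPM in replicate 2 and 60.2 in replicate 1. Its relative Ezh1, better known from non-dividing cells, had 15.3 TPM in replicate 2 and 13.7 in replicate 1, so Ezh2 was 4.35 ± 0.0637 times as high (SD, n = 2). Eed, which binds the mark that the complex makes, had 40.9 and 41.0 TPM in replicates 2 and 1. Suz12, the scaffold subunit, had 23.7 and 22.4 TPM. Jarid2, an accessory subunit, had 14.7 and 13.7 TPM, and its range overlapped that of Ezh1.

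The genes of Polycomb complex 1 spanned a wider range. Rnf2, which encodes the E3 ligase RING1B, had 67.6 TPM in replicate 2 and 68.0 in replicate 1. Ring1, which encodes the related ligase RING1A, had 5.25 and 4.37 TPM in replicates 2 and 1, so Rnf2 was 12.9 times as high in replicate 2 and 15.6 times as high in replicate 1. Bmi1, a RING finger partner of these ligases, had 27.2 and 26.2 TPM. Among the chromobox genes, whose proteins read lysine 27 methylation, Cbx2 had 35.0 TPM in replicate 2 and 27.9 in replicate 1. Cbx8 had 6.90 and 6.46 TPM, and Cbx7 (chromosome 15 from 79915807 to 79971119) had 1.86 and 1.83 TPM. Cbx2 therefore stood 18.8 times above Cbx7 in replicate 2 and 15.2 times above it in replicate 1 on deposited TPM. On the deposited posterior mean TPM this ratio was lower, 9.88 in replicate 2 and 8.02 in replicate 1. The level of Cbx7 rests on 144 counts in replicate 2 and 138 in replicate 1, the fewest of any member. Its TPM also lies below the lower bound of its deposited credibility interval, which is 2.05 in replicate 2 and 2.00 in replicate 1.

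The class I deacetylases Hdac2 and Hdac1, catalytic subunits of several corepressor complexes, were the highest members of the list. Hdac2 had 206 TPM in replicate 2 and 204 in replicate 1, and Hdac1 had 196 and 193 TPM. The ratio of Hdac2 to Hdac1 was 1.05 in both libraries, a small difference although the ranges did not overlap. Hdac3, the subunit of NCOR complexes, had 113 TPM in replicate 2 and 102 in replicate 1.

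Class IIa deacetylases, which move between nucleus and cytoplasm on signals, were lower and more spread. Hdac7, known from endothelium and thymocytes, had 41.5 TPM in replicate 2 and 34.5 in replicate 1. Hdac5 had 34.0 and 34.4 TPM, a narrow range that lay just below that of Hdac7. On posterior mean TPM the ranges of these genes overlapped, and Hdac5 was the higher in replicate 1. Hdac4 had 16.2 and 13.5 TPM, and Hdac9 had 3.13 and 3.30 TPM. Hdac7 was 13.2 times as high as Hdac9 in replicate 2 and 10.4 times in replicate 1. The Hdac9 level rests on 1 transcript from the second of its listed starts, the only one quantified for the gene. How other Hdac9 forms would change this level was not tested. Sirt1, an NAD-dependent deacetylase of another family, had 6.89 TPM in replicate 2 and 8.75 in replicate 1.

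Histone acetyltransferase genes were led by Kat2a, the GCN5 enzyme, at 59.4 TPM in replicate 2 and 54.1 in replicate 1. Crebbp and Ep300 encode the closely related coactivators CBP and p300. Crebbp had 30.9 and 30.3 TPM in replicates 2 and 1, and Ep300 had 14.9 and 16.3 TPM, which put Crebbp 2.08 times higher in replicate 2 and 1.86 times higher in replicate 1.

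Histone methyltransferases lay between 19.6 and 65.9 TPM on average. The partners Ehmt1 and Ehmt2, which form the main dimer for dimethylation of H3 lysine 9, had 69.7 and 58.1 TPM in replicate 2 and 62.2 and 51.0 TPM in replicate 1. Setdb1, which trimethylates that lysine and silences retroelements, had 41.9 TPM in replicate 2 and 39.7 in replicate 1. Nsd1, which acts on H3 lysine 36, had 28.2 and 25.9 TPM. Dot1l, which acts on H3 lysine 79, had 23.6 and 21.3 TPM. Suv39h2, an enzyme of constitutive heterochromatin, had 19.6 TPM in each library.

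Demethylase genes kept within a narrow band, from 18.8 ± 1.18 TPM for Kdm6b to 45.9 ± 2.15 TPM for Kdm1a (SD, n = 2 each). Kdm1a, which encodes LSD1, and Kdm5b, a demethylase of H3 lysine 4, had overlapping ranges, with 47.5 and 47.1 TPM in replicate 2 and 44.4 and 42.4 TPM in replicate 1. Kdm2b, a CpG-island binding protein that brings a form of Polycomb complex 1 to DNA, and Kdm4a, a demethylase of H3 lysines 9 and 36, also overlapped, with 38.9 and 36.4 TPM in replicate 2 and 32.4 and 34.2 TPM in replicate 1. Kdm6b, which removes methyl groups from H3 lysine 27, was the lowest in both libraries.

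Among the remodellers, Smarcb1, a core BAF subunit, led with 177 TPM in replicate 2 and 157 in replicate 1. Of the alternative BAF ATPases, Smarca4 (BRG1) had 91.8 and 82.8 TPM in replicates 2 and 1, and Smarca2 (BRM) had 37.7 and 39.4 TPM. The ratio of Smarca4 to Smarca2 was 2.43 in replicate 2 and 2.10 in replicate 1. Of the alternative DNA-binding subunits, Arid1a had 36.1 and 31.4 TPM and Arid1b 13.5 and 13.3 TPM, which put Arid1b at 0.375 of Arid1a in replicate 2 and 0.424 in replicate 1. Chd4, the ATPase of the NuRD complex, had 75.9 TPM in replicate 2 and 66.0 in replicate 1. Chd7, whose human counterpart is mutated in CHARGE syndrome, averaged 21.3 ± 0.375 TPM (SD, n = 2). Ctcf, the zinc finger protein at loop boundaries, had 101 TPM in replicate 2 and 95.8 in replicate 1.

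In all 15 pairs of related genes compared, the same gene was higher in both libraries and the ranges did not overlap. Across the 40 pairs of neighbours within a group, only Ezh1 and Jarid2, Kdm1a and Kdm5b, and Kdm2b and Kdm4a overlapped on deposited TPM. On posterior mean TPM, Cbx2 (34.2 and 27.3 in replicates 2 and 1) also overlapped Bmi1 (28.0 and 27.0). Hdac7 and Hdac5 overlapped as well, with 41.2 and 34.9 in replicate 2 and 34.3 and 35.6 in replicate 1. With 2 libraries this describes the order of levels and is no test.

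**Figure D2:**
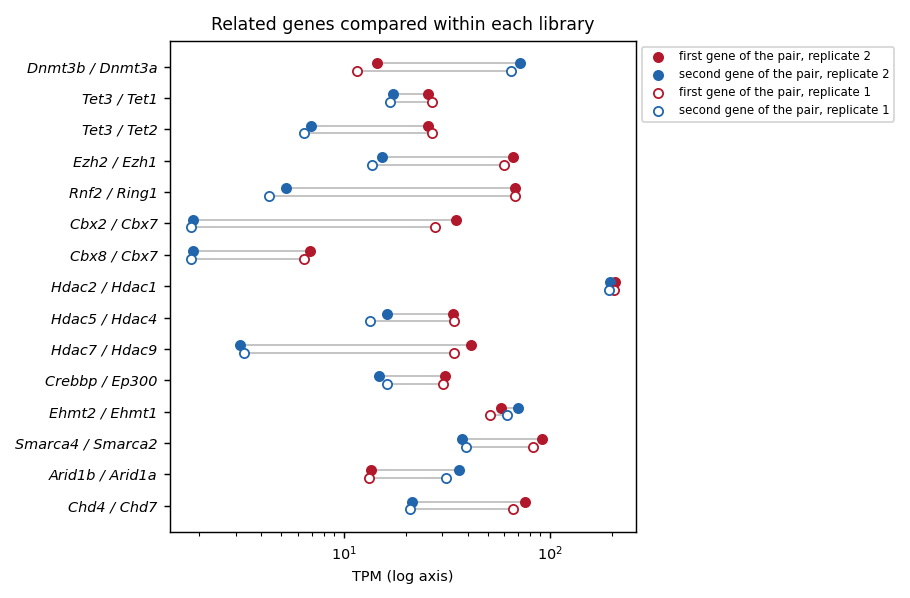
Levels in TPM (log axis) of 15 pairs of related genes, red for the gene named first and blue for the gene named second, with filled circles for replicate 2 above open circles for replicate 1. The widest gaps are those of Cbx2 over Cbx7, Rnf2 over Ring1 and Hdac7 over Hdac9, of which the first is narrower than the others on posterior mean TPM, and the narrowest is that of Hdac2 over Hdac1.

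A wider list held 168 other chromatin genes of the same or related roles, including cohesin genes and readers, of which 158 were detected. The median over the 168 was 23.2 TPM. The highest gene of each wider group was Idh2 (504 TPM) for DNA methylation, Rbbp7 (428 TPM) for Polycomb, Ncor1 (139 TPM) for deacetylase complexes, Hat1 (118 TPM) for acetyltransferases, Cbx3 (452 TPM) for methyltransferases and H3 lysine 9 readers, Jmjd6 (50.9 TPM) for demethylases, Atrx (161 TPM) for remodellers and Smc1a (90.5 TPM) for cohesin, as means of both libraries. Idh2 is a mitochondrial enzyme whose product feeds the Tet reaction, and Rbbp7 is a histone chaperone shared by several complexes. The lowest were the germ cell or neural genes Dppa3, Prdm9, Kdm4d, Chd5 and Ctcfl at under 1 TPM, and Asxl3, Hdac8 and Kat2b at 2.02, 2.75 and 4.30 TPM. Dppa3 had 0 counts in either library.

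Replicate 2 was compared with replicate 1 gene by gene by an exact binomial test of scaled counts, adjusted over 14870 genes with a mean of 1 TPM or more. This sets 2 libraries side by side, covers counting error only and does not compare conditions. No member was called at an adjusted p under 0.05 and a ratio of 2-fold or more, where 169 of the 14870 genes, or 1.14%, were called, 53 higher and 116 lower in replicate 2. At an unadjusted p under 0.05 the binomial test had 21 members, against 33.1% of all genes tested. edgeR's exact test adds a common spread of 9.58%, estimated from the same 2 libraries, and had 0 members, against 3.82% of all genes. The difference under test is part of that spread, so a low number of passing genes is largely built in. The 0 therefore does not show likeness between the libraries. All 48 members lay within 1.5-fold, as did 94.0% of the genes tested, and all lay inside the central 95% of tested log2 ratios, from -0.70 to 0.59. The median log2 ratio was 0.04 for members and 0.00 for all genes tested.

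At any size of ratio, 16 members passed an adjusted p under 0.05 in the exact binomial test as higher in replicate 2 and 0 as lower, against 11.0% of all tested genes higher and 11.5% lower. In edgeR's exact test 0 of the 48 passed, where 0.780% of all tested genes did, a share too small to read the members' count against. The 16 were Dnmt1, Dnmt3a, Dnmt3b, Uhrf1, Cbx2, Hdac3, Hdac4, Hdac7, Ehmt1, Ehmt2, Nsd1, Kdm2b, Smarca4, Smarcb1, Arid1a and Chd4. Each had a mean of 1000 counts or more, as did 43 members, and among the 7042 tested genes at that depth 15.0% passed as higher and 14.7% as lower.

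The largest ratio belonged to Dnmt3b, with 1156 counts in replicate 2 and 911 in replicate 1, a log2 ratio of 0.28 with a 95% counting interval of 0.15 to 0.41 and an exact binomial adjusted p of 0.000179. Cbx2 followed with 2868 and 2276 counts in replicates 2 and 1 and a log2 ratio of 0.27 (adjusted p = 1.24e-09, exact binomial test). Hdac7 had 2813 counts in replicate 2 and 2269 in replicate 1 and a log2 ratio of 0.25 (adjusted p = 4.90e-08, exact binomial test). The lowest ratios were those of Sirt1 and Hdac9, both -0.13, with 95% intervals that reached from -0.31 to 0.04 and from -0.36 to 0.10. Smarca4 had the deepest counts of the list, 11590 in replicate 2 and 10369 in replicate 1, and its log2 ratio of 0.10 passed with an exact binomial adjusted p of 1.22e-05. The ratios use counts scaled over mouse genes, whereas TPM also reflects spike-in counts and the lengths of the transcripts in use, so their signs can differ, as for Suz12 and Hdac5.

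**Figure D3:**
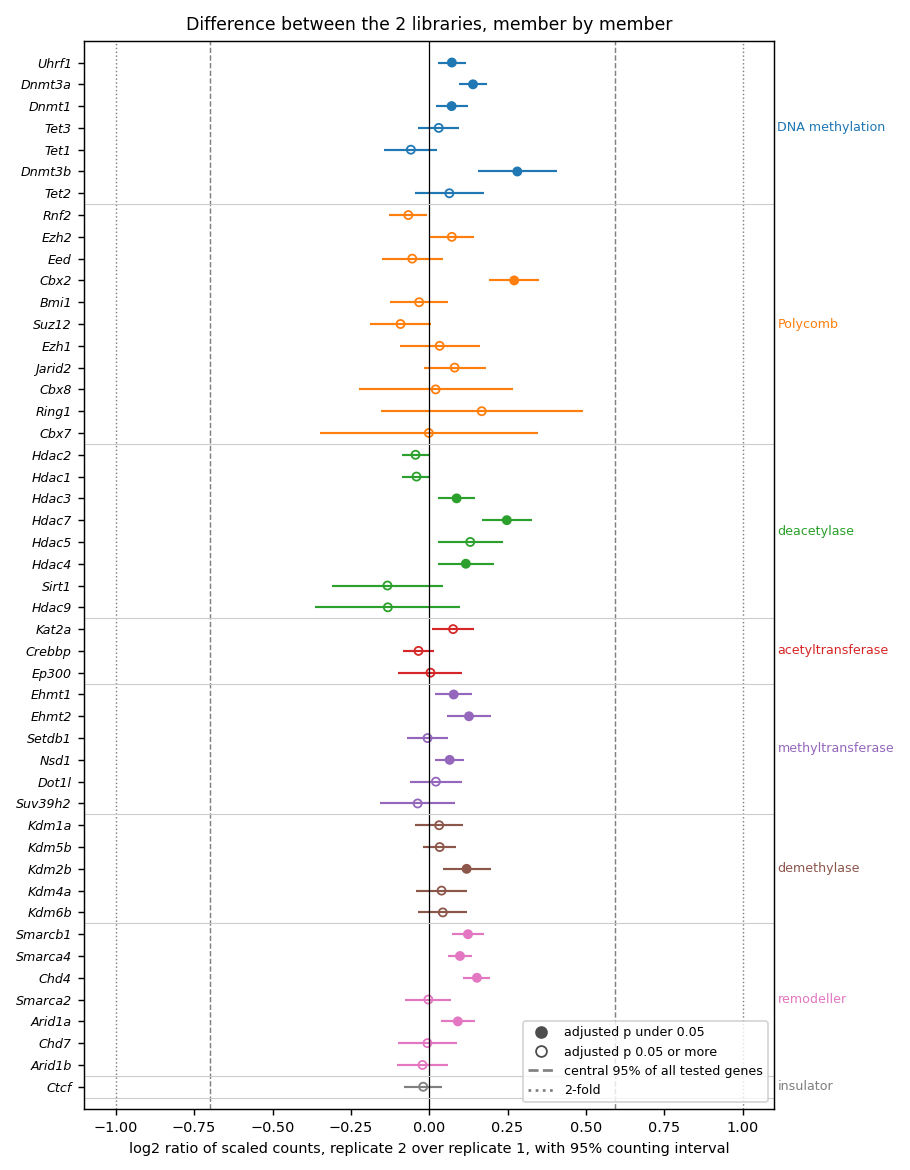
Log2 ratio of scaled counts, replicate 2 over replicate 1, for each member with its 95% counting interval, filled where the exact binomial adjusted p was under 0.05. All 48 points lie between the dashed lines that hold the central 95% of tested genes, and the 16 filled points lie right of 0.

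Directions depended on the scaling. With TMM scaling 31 members were higher and 17 lower in replicate 2, and 49.6% of all tested genes were higher. Scaling by the spike-in counts shifted the median log2 ratio of all tested genes by 0.34 and put all 48 members above 0, as it did 93.1% of all tested genes. With it, 46 members passed as higher at any size, against 76.7% of all tested genes. A scaling shifts every log2 ratio by the same amount, so the gap of 0.04 between members and the median gene cannot change with it. The share of all called genes that were higher in replicate 2 was 31.4% with TMM and 70.0% with the spike-in counts.

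Markers of other tissues and sex-linked genes differed between the libraries beside these ratios. All 5 heart muscle markers were called lower in replicate 2, with a summed level of 114 TPM in replicate 2 and 557 in replicate 1, and 2 of 3 liver markers were called higher, summing to 6.60 and 2.98 TPM in replicates 2 and 1. No lung, erythroid or proliferation marker was called, and all 6 lung markers and all 6 proliferation markers were detected, with proliferation markers summing to 1608 TPM in replicate 2 and 1507 in replicate 1. All 5 sex-linked markers were called, Xist as higher and 4 Y-linked genes as lower in replicate 2. The part of these differences in the member ratios was not tested.

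Of the wider list, 3 of 161 tested genes were called, against 1.14% of all tested genes. They were Kdm5d, Uty and Smyd1, all lower in replicate 2. Kdm5d and Uty are Y-linked genes of the demethylase families, and Smyd1 is a methyltransferase gene of heart and skeletal muscle. Kdm5d had 0.01 TPM in replicate 2 and 18.4 in replicate 1, and Uty had 0.02 and 17.6 TPM. Their X-linked counterparts Kdm5c and Kdm6a were higher in replicate 2 at under 2-fold, with 40.9 and 22.9 TPM in replicate 2 and 26.7 and 16.3 TPM in replicate 1. The adjusted p was 1.94e-58 for Kdm5c and 2.47e-21 for Kdm6a in the exact binomial test. Smyd1 had 0.42 TPM in replicate 2 and 2.13 in replicate 1, in the direction of the heart muscle markers. Of the 161 wider-list genes, 32 passed at any size as higher and 15 as lower, against 11.0% and 11.5% of all 14870 genes tested.

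The deposited tables split each gene's level over 359 transcripts of the members, with a median of 6 transcripts a gene. The estimates assign reads that several transcripts share, so a transcript with few bases of its own is uncertain. The annotation release used for names is newer than the authors', and 321 of the 359 transcripts had the same length in both. The same transcript led in both libraries for 47 of 48 members, Hdac5 being the exception. Of the 47, 3 have only 1 transcript and could not differ. Among the 45 members with more than 1 transcript, transcripts annotated as protein-coding carried a median of 86.4% of TPM in replicate 2 and 87.3% in replicate 1, against 92.0% and 92.4% over 9256 detected protein-coding genes. Counts are not corrected for transcript length, so they give more weight to long transcripts. By counts, the members' median coding share was 95.3% in replicate 2 and 95.1% in replicate 1.

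**Figure D4:**
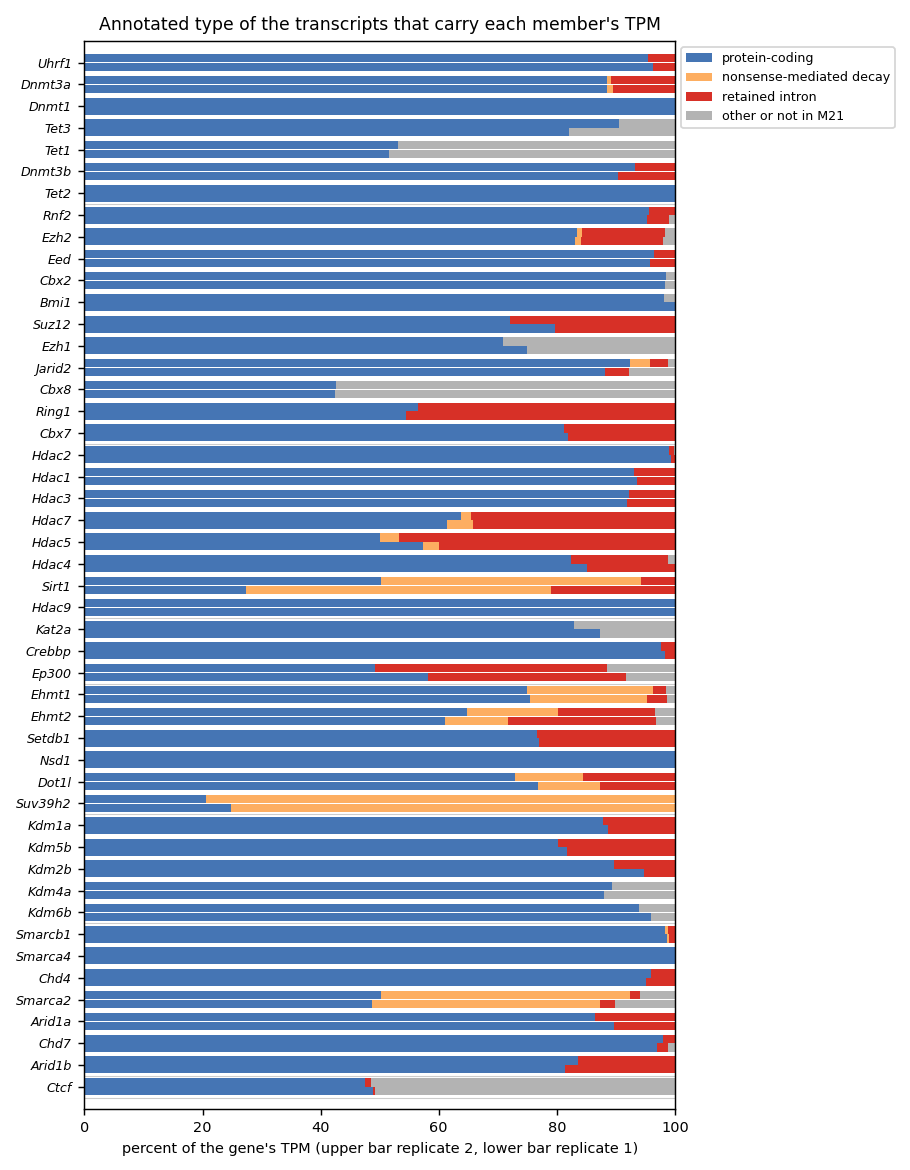
Percent of each member's TPM carried by transcripts annotated as protein-coding, nonsense-mediated decay, retained intron or other, with the upper bar for replicate 2 and the lower bar for replicate 1. Most bars are mainly blue, and Cbx8, Suv39h2 and Ctcf have at most 50% of their TPM on coding transcripts in both libraries.

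Of the members, 5 led with a transcript of a non-coding type. They were Tet1-202 and Cbx8-202 (processed transcripts), Hdac7-211 (a retained intron), and Sirt1-205 and Suv39h2-204 (annotated targets of nonsense-mediated decay). The share of all detected coding genes led by non-coding transcripts was not counted, so the 5 are a description only. In Cbx8, Suv39h2 and Ctcf, such transcripts carried 50% or more of TPM in both libraries, which is 6.67% of the 45 members against 9.31% of the detected coding genes. Suv39h2-204 carried 79.5% of the gene's TPM in replicate 2 and 75.2% in replicate 1 but has 0 exon bases that Suv39h2-201 lacks, and Ctcf-202 has 30 that Ctcf-201 lacks. By counts, coding transcripts held 86.6% of Ctcf in replicate 2 and 87.1% in replicate 1, and 31.7% and 34.5% of Suv39h2. They held 80.0% of Cbx8 in replicate 2 and 79.1% in replicate 1, and 88.7% of Tet1 in each library, so the non-coding majority of Cbx8 and Ctcf is one of TPM and not of counts. Sirt1-201, the transcript with the longest coding region of that gene, was estimated at 2.15 TPM in replicate 2 and 0 in replicate 1, while Sirt1-205 had 3.04 and 4.52 TPM.

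Dnmt3a transcripts divided between the pair of starts whose promoters are printed above. Transcripts from the upstream start carried 52.6% of TPM in replicate 2 and 51.5% in replicate 1, and those from the internal start, 84764 bases downstream, carried 40.0% and 36.9%. The upstream Dnmt3a-201 has a coding length of 2724 nt, and the internal Dnmt3a-205 one of 2067 nt, the form known as Dnmt3a2 from embryonic stem cells and germ cells, which lacks the N-terminal part. Dnmt3a-205 made up 45.2% of the summed TPM of the pair in replicate 2 and 43.5% in replicate 1, on an estimate in which 133 exon bases belong to it alone. The 300 bases around the internal start (250 before to 50 after) hold 18 CpG sites, with an observed-to-expected CpG ratio of 0.47, against 46 and 0.96 at the upstream start.

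For Dnmt1, the starts near the downstream site carried 72.7% of TPM in replicate 2 and 71.9% in replicate 1, and the upstream start carried 27.3% and 28.1%. Dnmt1-202, from the upstream start, has a coding length of 4503 nt against 4860 nt for Dnmt1-201, and a protein shortened at its N-terminus is known from oocytes. The lengths of both transcripts differ between the releases, and 156 exon bases belong to Dnmt1-202 alone. The 300-base window of the upstream start holds 2 CpG sites, the printed downstream one 12, and a further listed start at 20952623 has 33.

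Dnmt3b transcripts with a coding length of 2328 nt carried 54.3% of TPM in replicate 2 and 57.3% in replicate 1, and those of 2580 nt carried 34.7% and 29.8%. The longer form has segments of 60, 3, 70 and 119 coding bases that the shorter lacks, and Dnmt3b forms lacking part of the catalytic region are known to be inactive as enzymes. Within the single pair Dnmt3b-206 and Dnmt3b-207 the split was less steady, with 54.0% for Dnmt3b-206 in replicate 2 and 73.0% in replicate 1.

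Kdm2b drew most of its TPM from an internal start. Transcripts beginning there carried 75.0% of TPM in replicate 2 and 77.4% in replicate 1, against 13.2% and 16.1% for the upstream starts, 88157 bases away. Kdm2b-201 had 29.2 TPM in replicate 2 and 25.1 in replicate 1, and the upstream Kdm2b-203 had 1.80 and 2.68 TPM. Kdm2b-201 has a coding length of 2328 nt against 3909 nt and lacks the 5′ coding exons, which encode the JmjC demethylase domain in the long form. On the opposite strand Rnf34 (40.4 TPM in replicate 2 and 39.0 in replicate 1) shares 627 exon bases with Kdm2b.

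Other members split over starts or exons in like shares in both libraries. At Uhrf1, transcripts from the first listed start carried 43.1% of TPM in replicate 2 and 45.8% in replicate 1. Those from the next start, 976 bases downstream, carried 52.4% and 50.5%. Hdac7 and Arid1a also had more than 1 listed start. Tet3-202 made up 66.4% of its pair with Tet3-203 in replicate 2 and 70.0% in replicate 1, and Tet3-203 starts 14717 bases away and has 405 more coding bases. Ehmt2-204, with the printed 102-base exon, made up 60.5% against Ehmt2-202 in replicate 2 and 62.7% in replicate 1. The only Hdac9 transcript, with a coding length of 1764 nt, starts at the second of its listed starts, 388206 bases from the first. Smarca2-202, a decay target, made up 47.4% against the coding Smarca2-201 in replicate 2 and 43.6% in replicate 1, an order that turned on posterior mean TPM, where its mean share was 50.3%. Ezh2-207, a non-coding transcript, made up 11.4% and 10.3% against Ezh2-201. Tet1-202, of 1505 nt, made up 57.4% in replicate 2 and 57.0% in replicate 1 against Tet1-206, whose coding length is 6117 nt.

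The pairs that follow were chosen after their values were seen. Kdm1a-202, with the printed 60-base segment, made up 46.9% against Kdm1a-203 in replicate 2 and 45.8% in replicate 1. Smarcb1-202, without the printed 27 bases, made up 39.2% and 40.3% against Smarcb1-201. These splits differed by under 2 percentage points between libraries. Suz12-206, without the printed 69 bases, was less steady, with 22.7% of its pair in replicate 2 and 43.8% in replicate 1. Cbx7-201 had 18.5% of its pair with Cbx7-203 in replicate 2 and 46.7% in replicate 1, at gene levels under 2 TPM. Kat2a-202, which has 3 more coding bases than Kat2a-201, made up 35.8% in replicate 2 and 27.3% in replicate 1. Arid1b-202, with 1446 more coding bases than Arid1b-203, made up 34.8% and 28.3%, and Kdm5b-201 made up 39.9% and 46.6% against Kdm5b-203.

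**Figure D5:**
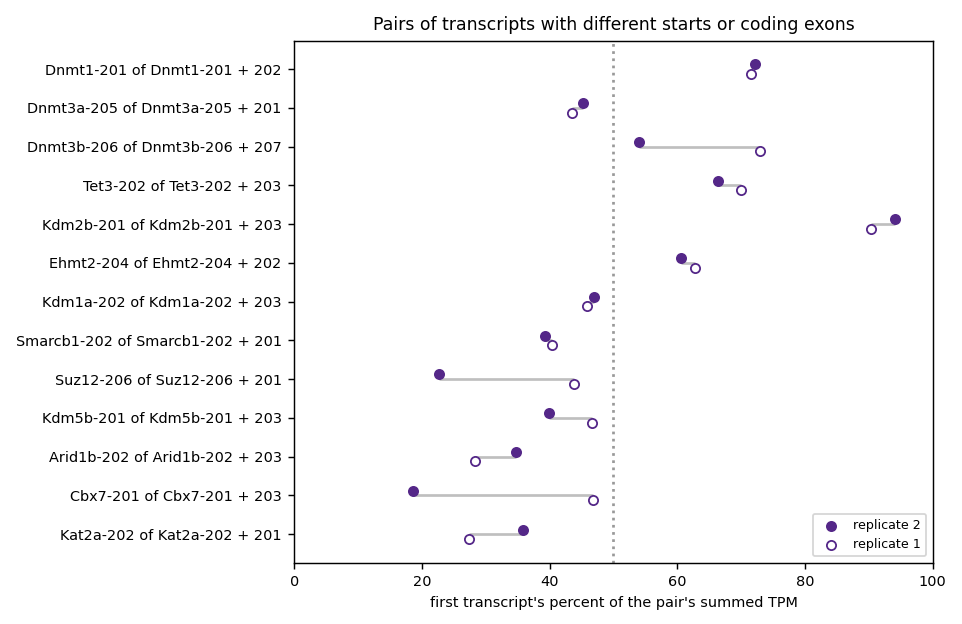
First transcript's percent of the summed TPM of its pair, filled for replicate 2 and open for replicate 1, with a dotted line at 50%. Kdm2b-201 stands above 90% in both libraries, while the open and filled points of Dnmt3b-206, Suz12-206 and Cbx7-201 lie far apart.

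Promoters of the members were rich in CpG sites. RefSeq listed 58 promoters for 42 of the 48 genes, each of 300 bases, and Kdm6b, Nsd1, Chd7, Hdac3, Hdac1 and Cbx2 had none in the table. Of the 58, 49 or 84.5% had a GC content of 50% or more and an observed-to-expected CpG ratio of 0.6 or more, against 65.8% of 12720 promoters of detected protein-coding genes and 45.1% of 21263 promoters of all protein-coding genes. Median GC content was 67.7% for members and 61.0% for detected coding genes. Windows of nearby starts of the same gene, as at Kdm2b and Chd4, overlapped and were counted separately. The Hdac9 promoters were at the other end, with 3 CpG sites at the start of the listed transcript and 0 at the other.

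A set of 5 motifs was searched on both strands. An E2F site, written as TTTCCCGC, TTTCGCGC, TTTGCCGC or TTTGGCGC, was found in 6 member promoters (10.3%), those of Arid1a, Dnmt1, Ezh2, Kat2a, Suz12 and Uhrf1, against 3.95% of promoters of detected coding genes. The NRF1 motif, the half-site GCGC on either side of any 2 bases, was found in 16 promoters (27.6%), from 14 genes, against 12.9%. The half-site itself holds a CpG and ends the E2F forms TTTCGCGC and TTTGGCGC. The CCAAT box was found in 36.2% against 37.5%, TATAAA in 3.45% against 6.96%, and the ETS motif CCGGAAGT in 0 of 58 against 7.79%. At Dnmt1, Ezh2, Suz12 and Uhrf1 the promoter with the E2F letters also held CCAAT, and those of Dnmt1 and Ezh2 held the NRF1 motif too. A match of letters is a description of the window and not a measured binding site.

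Some members share exon bases with other genes, and whether strand was used in counting was not given in the sources used here. Exons of 21 members overlapped another annotated gene, 16 of them on the opposite strand, and 1 member, Hdac4, shared 10% or more of its exon bases, with Gm26720 at 0.65 TPM in replicate 2 and 0.52 in replicate 1. Setdb1 shares 75 bases with Cers2 (149 TPM in replicate 2 and 133 in replicate 1), and Cbx7 shares 100 with Apobec3 (35.1 and 36.9 TPM). How reads in these stretches were divided was not tested.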

How the data were processed

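Total RNA of 2 lung libraries was measured, and per the file headers the authors deposited for each a gene and a transcript table with expected counts (estimated reads, not normalized), TPM over all features with spike-ins included, posterior mean TPM, the posterior standard deviation of the count and credibility bounds of TPM (the last 2 recorded here as signal). The deposited transcript tables also give each transcript's percent of its gene's TPM. Build mm10 and annotation release M4 come from the deposited read-me files. The aligner, the quantification program and their settings were not given in the sources used here.

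Names and coordinates came from GENCODE M21, promoters from RefSeq on GRCm38.p6. Detection was TPM of 1 or more in both libraries. Expected counts were rounded, scaled with TMM, and compared as replicate 2 over replicate 1, with 0.5 added for the ratio. The test was an exact two-sided binomial test of the 2 counts, with Benjamini-Hochberg adjustment over 14870 genes (scipy 1.17.1). It was checked on simulated counts with counting error only, so the check does not cover spread beyond counting in these libraries. A call was an adjusted p under 0.05 and 2-fold or more. edgeR 4.0.16 (R 4.3.3) gave TMM factors and an exact test at the common dispersion, fitted with an intercept only. Intervals cover counting error at the 95% level. With 31940637 to 33167255 mouse gene counts a library and 138 to 11590 counts a member, low members are the least precise.

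All 48 members were named. Neighbours in a group were separate when their ranges did not overlap, and the named transcripts were each gene's leading ones, those of non-coding types and a fixed set of pairs. The members, lists and comparisons were chosen with earlier results of these data known. The labels number the libraries as biological replicates, and p-values of the binomial test reflect counting error between these libraries only. Other scalings, filters, detection levels, a 1.5-fold limit, posterior means and each library alone were tried as alternatives.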

Additional observations from a re-analysis of the deposited data

How the results depend on the processing

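All 48 members were detected with either library alone, and no member was called under any alternative run. The number of members at or above the detection level was 48 at 0.5 TPM and 45 at 5 TPM. The members' median level ranged from 31.9 to 35.5 TPM over the single libraries and was 37.7 TPM when TPM was rescaled over mouse genes only, against 34.0 as deposited. Of all genes, 169 were called in the comparison as reported, 290 with spike-in scaling, 538 with no filter on low values, 398 with a fold limit of 1.5 and 106 with edgeR's exact test. The members' median log2 ratio was 0.38 with spike-in scaling against 0.04, a move made by the scaling itself, since the median of all genes moved by 0.34. It was 0.04 with the edgeR log ratio, an alternative chosen after seeing the data. At any size of ratio, 14 to 17 members passed as higher in replicate 2 with the other count scalings or no filter, 46 with spike-in scaling and 0 with edgeR's exact test, against 6.66% to 12.4%, 76.7% and 0.175% of all genes tested. The share of Smarca2-202 in its pair was 45.5% on average from TPM and 50.3% from posterior mean TPM, which turned the order of the pair, and the cause was not tested. Of the other transcript pairs 4 moved by more than the spread between libraries under posterior means and 13 did not, and of the 15 gene pairs 4 moved and 11 did not, all in the same direction. The pairs that moved by over 1.5 times were Cbx2 over Cbx7, at 8.95 on posterior means against 17.0, and Cbx8 over Cbx7, at 2.02 against 3.62. No paired analysis was possible because the series has 1 group. Depth limits Cbx7, Ring1, Cbx8 and Hdac9, whose 95% intervals of the log2 ratio were the widest.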
